A study of Homo sapiens with 6 samples.

Results

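The annexins and the AHNAK proteins are membrane-associated proteins that meet at the inner face of the plasma membrane. The genes described here are AHNAK, AHNAK2, ANXA1, ANXA2, ANXA3, ANXA4, ANXA5, ANXA6, ANXA7 and ANXA11, chosen by symbol, 10 of the 28278 gene symbols counted. They were put forward with results of this same contrast already known, so their fold changes, p-values and counts below are a description of these libraries and support nothing further. The cells were HCT116, a cell line established from human colon carcinoma and labelled poorly differentiated, and RNA was sequenced in 2 groups of 3 libraries. The shTRIM21 cells stably carried a lentiviral shRNA against TRIM21, the ubiquitin ligase and antibody receptor, and the shControl cells, labelled WT by genotype, carried a scrambled lentiviral shRNA. All cells of both groups had puromycin at 5 µg/ml from 36 h after infection for 2 to 3 weeks, and all are labelled day 21. How many shRNA sequences were used against TRIM21, and whether a group is 1 clone or a pool, was not stated in any source used here. The labels number the libraries as biological replicates and name no separate cultures. The p-values therefore weigh a difference only against the spread between these libraries, which may be technical.

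Annexins share a folded core that binds acidic phospholipids when calcium rises, and differ mainly in their N-terminal tails, which bind S100 and other EF-hand proteins. AHNAK is a giant repeat-rich scaffold that binds the complex of ANXA2 and S100A10 under the plasma membrane, and AHNAK2 is its giant relative. In epithelial cells these proteins are known for tying the membrane to cortical actin, for vesicle traffic and for resealing of torn membrane.

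The genes that passed the test were AHNAK2, ANXA1 and ANXA5, which rose in shTRIM21 cells, and AHNAK, which fell. AHNAK2 and ANXA1 were the members with the greatest differences, 2.16-fold and 1.89-fold. ANXA2, ANXA3, ANXA4, ANXA6, ANXA7 and ANXA11 did not pass. Across all genes 9.08% of the 14002 tested genes passed, 4.43% higher in shTRIM21 and 4.66% lower. The median log2 fold change of the 10 genes was 0.21, against 0.01 for all tested genes. Since earlier results of this contrast chose these genes, nothing is read from their count against those shares.

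AHNAK2 and AHNAK are long on the genome and in sequence. In GENCODE release 29 (GRCh38), AHNAK lies at chr11:62433542-62556235 on the minus strand and its longest coding sequence holds 17670 bases in a transcript of 5 exons. AHNAK2 lies at chr14:104937244-104978357, also on the minus strand, with a coding sequence of 17385 bases in a transcript of 7 exons. ANXA1, at chr9:73151757-73170393 on the plus strand, has a coding sequence of 1038 bases, and ANXA5, at chr4:121667955-121697113 on the minus strand, has 960 bases. On the plus strand lie ANXA3 (chr4:78551519-78610451) and ANXA4 (chr2:69644425-69827100), and on the minus strand ANXA2 (chr15:60347134-60402883), ANXA6 (chr5:151100712-151157882), ANXA7 (chr10:73375101-73414076) and ANXA11 (chr10:80150889-80205572). ANXA6 has the longest annexin coding sequence, 2019 bases in a transcript of 26 exons. The promoter windows of these 4 genes are shown because their RNA passed the test, AHNAK in the other direction from the rest. Each is the first RefSeq window listed for the gene (GRCh38.p14), from 250 bases before the start to 50 bases after it, written 5′ to 3′ on the gene's own strand. The windows are chr14:104978325-104978624 (minus strand) for AHNAK2, chr9:73151615-73151914 (plus strand) for ANXA1, chr4:121696931-121697230 (minus strand) for ANXA5 and chr11:62545777-62546076 (minus strand) for AHNAK. The AHNAK window, like those of ANXA2 and ANXA3, lies inside the GENCODE span of its gene, downstream of the 5′ end. The windows of ANXA4 and ANXA11 lie wholly outside the spans of their genes, upstream of the 5′ end. Each window describes the listed start and not every start of the gene. Capitals mark any match, on either strand, to TATAAA (the core promoter box bound by TBP), CCAAT (the box bound by NF-Y), GGGCGG (an SP1 box), TGACTCA (an AP-1 site) or GGAATG (a TEAD site).
AHNAK2: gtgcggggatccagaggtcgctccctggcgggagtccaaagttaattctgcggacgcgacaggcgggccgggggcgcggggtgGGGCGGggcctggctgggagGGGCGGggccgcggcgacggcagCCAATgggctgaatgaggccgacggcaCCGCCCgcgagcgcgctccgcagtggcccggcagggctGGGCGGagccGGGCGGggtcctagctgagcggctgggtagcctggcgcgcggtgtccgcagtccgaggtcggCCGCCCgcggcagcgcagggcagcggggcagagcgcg
ANXA1: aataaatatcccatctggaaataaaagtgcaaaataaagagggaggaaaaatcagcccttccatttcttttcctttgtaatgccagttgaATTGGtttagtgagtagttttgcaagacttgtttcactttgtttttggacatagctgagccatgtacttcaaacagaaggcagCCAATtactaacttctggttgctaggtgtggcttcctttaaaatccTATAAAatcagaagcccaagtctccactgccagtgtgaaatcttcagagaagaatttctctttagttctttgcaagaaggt
ANXA5: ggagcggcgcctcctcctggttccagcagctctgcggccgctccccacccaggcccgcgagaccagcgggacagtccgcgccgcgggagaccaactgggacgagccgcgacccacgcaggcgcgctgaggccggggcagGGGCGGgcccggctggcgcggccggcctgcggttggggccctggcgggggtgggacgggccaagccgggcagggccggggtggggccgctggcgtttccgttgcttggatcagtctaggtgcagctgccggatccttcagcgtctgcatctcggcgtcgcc
AHNAK: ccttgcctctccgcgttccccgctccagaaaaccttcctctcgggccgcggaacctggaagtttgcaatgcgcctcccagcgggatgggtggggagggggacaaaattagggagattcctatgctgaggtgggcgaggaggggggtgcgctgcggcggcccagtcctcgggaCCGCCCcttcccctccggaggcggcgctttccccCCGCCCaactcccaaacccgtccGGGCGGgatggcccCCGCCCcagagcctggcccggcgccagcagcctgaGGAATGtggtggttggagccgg

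The ANXA1 window differed from the other 3 in composition. It was 37.7% G or C with 0 CpG dinucleotides, against 78.0% and 42 for AHNAK2, 76.3% and 36 for ANXA5, and 70.0% and 25 for AHNAK. Over 27305 RefSeq promoters the median GC content was 58.3%, with quartiles of 46.7% and 67.7%. The AHNAK2 window held 6 GGGCGG matches and the AHNAK window 4, and the ANXA5 window held 1. The ANXA1 window held 0 of these, 1 TATAAA match, starting at base 220, and 2 CCAAT matches. AHNAK also held 1 GGAATG match and AHNAK2 1 CCAAT match, and the only TGACTCA match among the 10 genes was in ANXA2. Of all promoters, 12.0% hold TATAAA, 35.7% CCAAT, 44.6% GGGCGG, 4.92% TGACTCA and 14.0% GGAATG on either strand, and among the 10 genes here 3, 4, 7, 1 and 1 do. A match is a run of letters and not a measured binding site.

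The knockdown and the libraries were checked first. TRIM21 had 8.82, 8.17 and 6.68 CPM (the count scaled to a common library size after TMM normalization) in shTRIM21 replicates 1 to 3, and 11.8, 11.7 and 15.8 CPM in shControl replicates 1 to 3. The groups did not overlap and TRIM21 fell by 0.73 on the log2 scale (SE 0.17, adjusted p = 0.0124). Without shTRIM21 replicate 3 the call was lost (adjusted p = 0.0734), as it was when replicate 3 was dropped from both groups (log2 fold change -0.45, adjusted p = 0.114). Library totals ran from 22656160 to 27123657 counts. Ribosomal RNA genes held 15.2%, 13.5% and 9.55% of counts in shTRIM21 and 14.7%, 13.2% and 6.69% in shControl, lowest in replicate 3 of each group. Counts of pairs of libraries were compared by a chi-square per gene, ribosomal RNA genes included. Between shControl replicate 3 and shControl replicates 1 and 2 it was 72.9 and 54.1. Between shControl replicate 3 and shTRIM21 replicate 3 it was 31.1, and between shControl replicates 1 and 2 it was 5.70. These values partly restate the ribosomal shares, and how far they do was not tested. Without shControl replicate 3 the log2 fold changes were 0.99 for AHNAK2, 0.98 for ANXA1, 0.38 for ANXA5 and -0.41 for AHNAK, all past the threshold. Of 12 colon epithelial markers, 6 reached a mean of 5 CPM and 9 were tested. Of these 9, 0 passed in either direction with edgeR, DESeq2 or limma-voom, and 2 had an unadjusted p under 0.05 in edgeR. Of all 14002 tested genes, 9.08% passed in edgeR and 3188 had an unadjusted p under 0.05. The median log2 fold change of the 9 markers was -0.16, and 2 fold changes were positive. Groups did not overlap for 5 of the 9, against 28.1% of all tested genes. The summed level of the 12 markers was 220.0 to 220.5 CPM in shTRIM21 and 229.0 to 246.6 CPM in shControl, with CDX1 and LGALS4 listed at 0 in all libraries. Summed levels of 8 fibroblast, 6 endothelial and 7 leukocyte markers stayed under 0.5 CPM in each library. Fewer cells with a transcript and less of it per cell cannot be told apart in bulk RNA.

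AHNAK2 was the member that rose most. It had 34.2, 30.4 and 26.3 CPM in shTRIM21 and 15.99, 14.8 and 11.4 CPM in shControl, from 678 to 873 counts and from 321 to 391 counts. All 3 shTRIM21 libraries lay above all 3 shControl libraries, and replicate 3 was the lowest of each group. The means were 30.3 ± 3.95 and 14.1 ± 2.36 CPM (SD, n = 3 each), a log2 fold change of 1.11 (SE 0.14, adjusted p = 4.06e-05 in the quasi-likelihood fit of edgeR, Benjamini-Hochberg over all tested genes), and its fold change ranked 163rd of 14002 from the highest. Exons of AHNAK2 and of PLD4, a phospholipase D family gene on the opposite strand, share 547 bases, 2.91% of the exon length of AHNAK2. PLD4 had 40, 38 and 24 counts in shTRIM21 and 16, 18 and 19 in shControl. No source used here gives the strand setting of the counting, so reads on the shared bases cannot be assigned to either gene. PLD4 itself did not pass (log2 fold change 1.02, SE 0.48, adjusted p = 0.219).

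AHNAK, the abundant scaffold of the pair per kilobase, fell. It had 1533, 1680 and 1663 CPM in shTRIM21 and 2183, 2147 and 1821 CPM in shControl. The groups did not overlap, and shControl replicate 3, the library with the lowest ribosomal share, lay nearest to the shTRIM21 libraries. The means were 1625 ± 80.6 and 2050 ± 199 CPM (SD, n = 3 each), a log2 fold change of -0.33 (SE 0.08, adjusted p = 0.0153), and AHNAK held 0.162% of all counts in shTRIM21 and 0.205% in shControl. The call was lost without shTRIM21 replicate 1 (adjusted p = 0.0706), replicate 2 (0.0563) or replicate 3 (0.0675) and without shControl replicate 1 (0.0871) or replicate 2 (0.0704), with log2 fold changes of -0.29, -0.36, -0.35, -0.29 and -0.30. It was kept without shControl replicate 3, at -0.41. In a fit without the ribosomal RNA genes the call was kept. That fit only leaves those genes out and cannot remove a difference in depletion between libraries, whose part in this fall was not tested.

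Per kilobase of the transcript with the longest coding sequence, AHNAK2 stood at 2.30%, 1.87% and 1.63% of the AHNAK level in shTRIM21 and at 0.754%, 0.709% and 0.646% in shControl. The groups did not overlap, and the means were 1.93% ± 0.340 and 0.703% ± 0.0543 (SD, n = 3 each). AHNAK2 was thus the minor AHNAK RNA in each of the 6 libraries. Of 104 tested genes with an annotated transcript of at least 15000 bases, 2 rose, 15 fell and 87 did not pass, with a median log2 fold change of -0.14, against 0.01 for all tested genes. Of all tested genes 4.43% rose and 4.66% fell. AHNAK was among the 15, and the 2 that rose were AHNAK2 and SRGAP1 (log2 fold change 0.61, SE 0.11). That length limit and this count were chosen after values had been seen, and a part of length in these changes was not tested. With an offset for exon length and GC content in the fit, AHNAK2 rose by 1.11 (adjusted p = 3.97e-07) and AHNAK fell by 0.28 (adjusted p = 0.00232) on the log2 scale. Without the offset the log2 fold changes were 1.11 for AHNAK2 and -0.33 for AHNAK. The offset was fitted to these same libraries, and nothing about a part of length is read from these values.

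ANXA1, a glucocorticoid-responsive annexin known for restraining phospholipase A2 and for acting on formyl peptide receptors outside the cell, was the annexin that rose most. It had 43.2, 49.0 and 46.5 CPM in shTRIM21 and 22.3, 24.6 and 26.5 CPM in shControl. Even the lowest shTRIM21 library lay well above the highest shControl library. The means were 46.2 ± 2.92 and 24.5 ± 2.08 CPM (SD, n = 3 each), a log2 fold change of 0.92 (SE 0.10, adjusted p = 7.57e-06). The log2 fold change stayed between 0.85 and 0.98 with each library left out in turn.

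ANXA5, the phosphatidylserine binder used as a probe for dying cells, rose less. It had 443, 466 and 468 CPM in shTRIM21 and 350, 359 and 403 CPM in shControl. The groups did not overlap, and shControl replicate 3 was again the control library nearest to the shTRIM21 libraries. The means were 459 ± 14.0 and 371 ± 28.01 CPM (SD, n = 3 each), a log2 fold change of 0.31 (SE 0.06, adjusted p = 0.00534). With each library left out in turn the adjusted p reached at most 0.0479.

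ANXA2, the partner of S100A10 and of AHNAK, had 535, 517 and 511 CPM in shTRIM21 and 466, 479 and 496 CPM in shControl. The groups did not overlap, but the gap was small, and the log2 fold change of 0.12 (SE 0.06) did not pass (adjusted p = 0.244). It passed with the offset for exon length and GC content (log2 fold change 0.16, adjusted p = 0.0168). Its processed copies ANXA2P1, ANXA2P2 and ANXA2P3, which are near-identical to it, together held counts equal to 0.198%, 0.113% and 0.0454% of those of ANXA2 in shTRIM21, and 0.184%, 0.0852% and 0.0861% in shControl. How reads that match several of these copies were assigned, or whether they were dropped, is not stated, and these shares do not bound the counts that ANXA2 may have lost or gained that way.

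ANXA4, an annexin of epithelial membranes, had 31.3, 35.5 and 42.1 CPM in shTRIM21 and 25.3, 29.5 and 32.8 CPM in shControl. The lowest shTRIM21 library lay below the highest shControl library. The means were 36.3 ± 5.44 and 29.2 ± 3.78 CPM (SD, n = 3 each), and the log2 fold change of 0.31 (SE 0.12), about that of ANXA5 with a larger error, did not pass (adjusted p = 0.115). It passed with no filter on low counts (0.04999), with the replicate number as a block (0.0356), with the offset for exon length and GC content (0.0119, log2 fold change 0.40) and without shControl replicate 3 (0.0281, log2 fold change 0.41). AAK1, a kinase gene on the opposite strand, overlaps ANXA4 but shares 0 exon bases with it.

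The other 4 annexins did not pass, and their groups overlapped. ANXA6, which has a doubled annexin core, averaged 39.5 ± 2.77 CPM in shTRIM21 and 40.5 ± 1.75 CPM in shControl (SD, n = 3 each; log2 fold change -0.04, SE 0.09, adjusted p = 0.861). ANXA7 (synexin) and ANXA11 carry long N-terminal tails, and ANXA11 is known for tethering RNA granules to lysosomes. ANXA7 averaged 94.3 ± 10.7 CPM in shTRIM21 and 88.3 ± 5.43 CPM in shControl (SD, n = 3 each; log2 fold change 0.10, SE 0.08, adjusted p = 0.538). ANXA11 averaged 54.7 ± 4.12 CPM in shTRIM21 and 51.6 ± 6.35 CPM in shControl (SD, n = 3 each; log2 fold change 0.09, SE 0.10, adjusted p = 0.638). ANXA3, the lowest of the 10 genes per kilobase, had 1.059, 1.35 and 2.01 CPM in shTRIM21 and 1.10, 1.35 and 0.961 CPM in shControl (log2 fold change 0.37, SE 0.44, adjusted p = 0.667). Its 27 to 52 counts per library leave an SE too large to show a difference of that size.

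**Figure D1:**
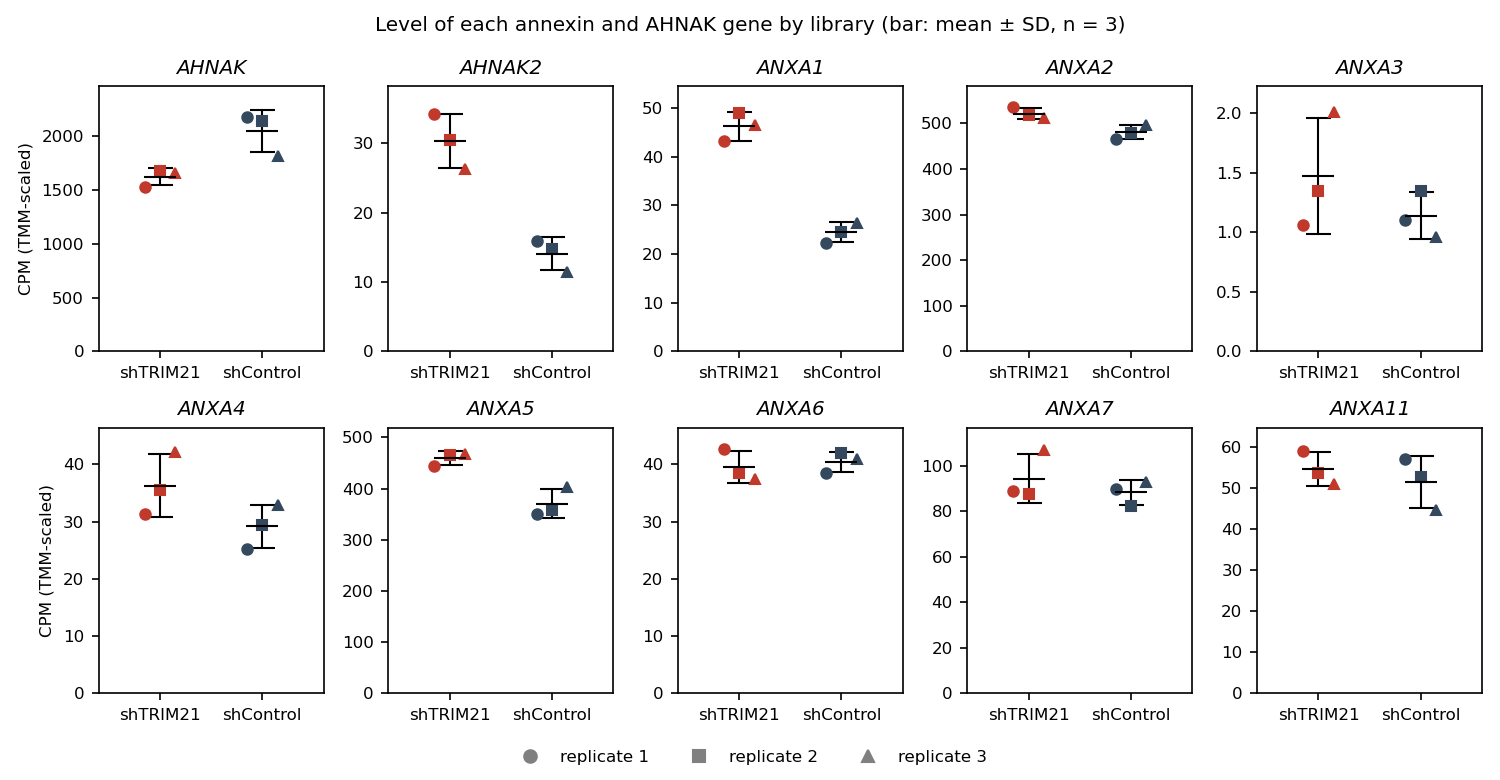
Level of each of the 10 genes in CPM, on linear axes from 0, in the 3 shTRIM21 libraries (red, left) and the 3 shControl libraries (blue, right). Points are libraries, marked by replicate number, and bars give the mean ± SD. Relative to their levels, AHNAK2 and ANXA1 show the widest gaps between the groups, and AHNAK is lower in shTRIM21.

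In all, 5 of the 10 genes had groups that did not overlap, against 28.1% of all tested genes (14.1% higher and 13.9% lower in shTRIM21), and 8 of the 10 fold changes were positive. The 8 annexins summed to 1244 to 1265 CPM in shTRIM21 and to 1050 to 1137 CPM in shControl, with means of 1253 ± 10.7 and 1086 ± 45.4 CPM (SD, n = 3 each). Most of this sum came from ANXA2 and ANXA5, and 6 of the 8 annexins, ANXA2 included, did not pass. Per kilobase of the transcript with the longest coding sequence, ANXA1 stood at 5.27%, 6.19% and 5.95% of the ANXA2 level in shTRIM21 and at 3.13%, 3.35% and 3.49% in shControl. The means were 5.80% ± 0.475 and 3.32% ± 0.181 (SD, n = 3 each), with no overlap between the groups. These percentages depend strongly on the length used, which was chosen after the data were seen. Per kilobase of all annotated exons joined, ANXA1 averaged 10.1 CPM and ANXA2 59.1 CPM in shTRIM21. In shControl the averages by that length were 5.36 and 54.4 CPM.

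**Figure D2:**
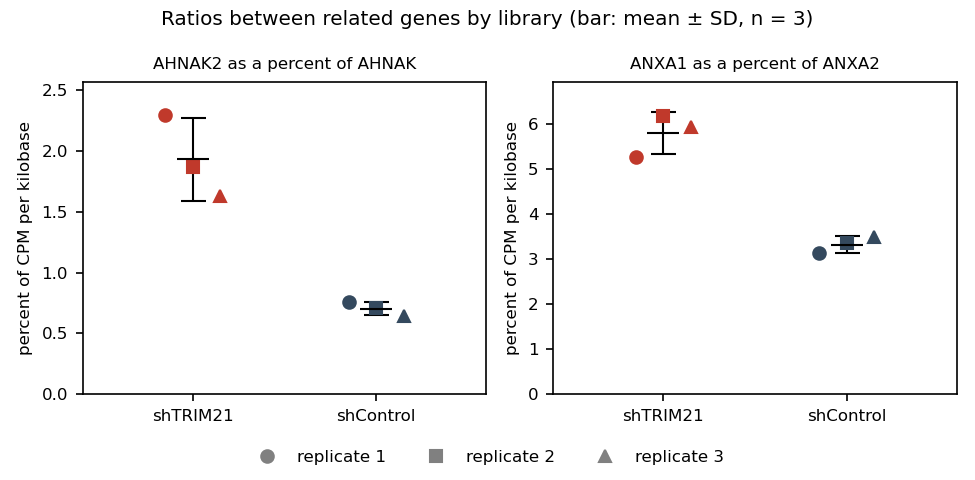
Level of AHNAK2 as a percent of AHNAK (left) and of ANXA1 as a percent of ANXA2 (right), each per kilobase of the transcript with the longest coding sequence, in shTRIM21 (red) and shControl (blue) libraries. Points are libraries and bars the mean ± SD. AHNAK2 averaged 1.93% of AHNAK in shTRIM21 and 0.703% in shControl, and ANXA1 averaged 5.80% of ANXA2 in shTRIM21 and 3.32% in shControl. The length was chosen after the data were seen, and the ANXA1 percentages depend strongly on it.

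Per kilobase of all annotated exons joined, the mean levels in shTRIM21 ran from 151 CPM per kilobase for ANXA5 through AHNAK (83.5), ANXA2 (59.1), ANXA7 (32.9), ANXA1 (10.1), ANXA6 (7.28), ANXA11 (6.43), ANXA4 (3.29) and AHNAK2 (1.62) to 0.287 for ANXA3. In shControl they were 122 for ANXA5, 105 for AHNAK, 54.4 for ANXA2, 30.8 for ANXA7, 7.46 for ANXA6, 6.06 for ANXA11, 5.36 for ANXA1, 2.64 for ANXA4, 0.749 for AHNAK2 and 0.222 for ANXA3. ANXA1 was thus 5th in shTRIM21 and 7th in shControl, and the other places kept their order. Neighbours whose libraries overlapped were ANXA6 and ANXA11 in shTRIM21, and ANXA11 and ANXA1 in shControl. The length used matters most for ANXA2: per kilobase of the transcript with the longest coding sequence, a choice made after the data were seen, ANXA2 came first, at 361 CPM per kilobase in shTRIM21 and 333 in shControl, ahead of ANXA5 at 261 and 210.

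**Figure D3:**
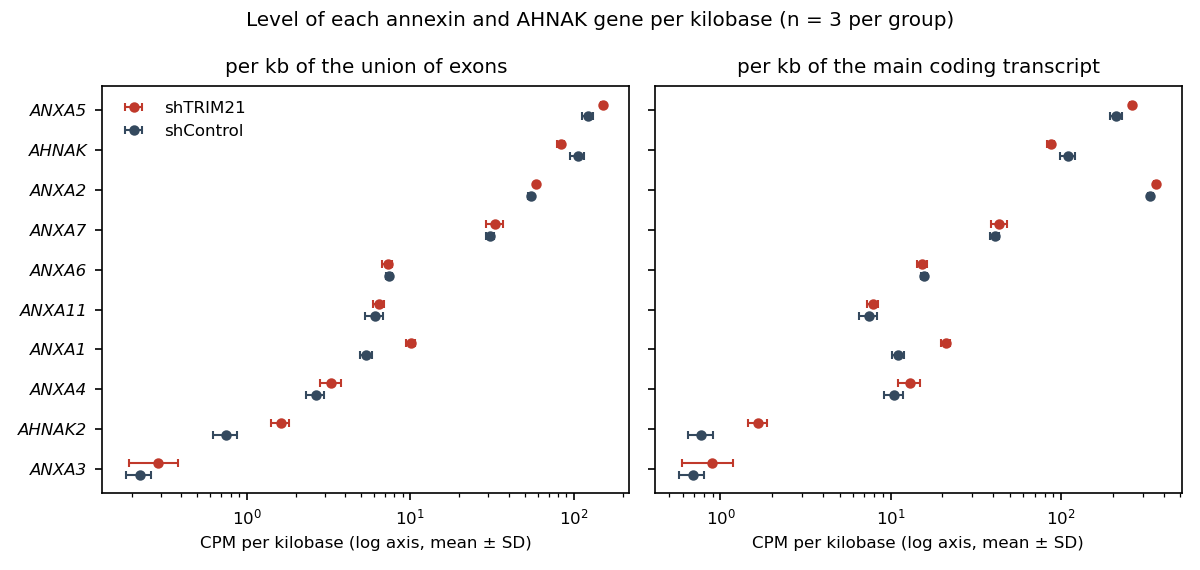
Mean level of each gene in CPM per kilobase (log axis) in shTRIM21 (red, upper point) and shControl (blue, lower point), with bars for the SD over 3 libraries. The left panel divides by the joined length of all annotated exons and the right panel by the transcript with the longest coding sequence. ANXA5 leads on the left at 151 and 122 CPM per kilobase, and ANXA2 on the right at 361 and 333.

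Of 9 further annexin genes, receptor and pseudogene included, only ANXA9 and ANXA2R had counts enough to be tested. With edgeR, DESeq2 or limma-voom 0 passed, and 1, ANXA9, had an unadjusted p under 0.05 in edgeR. Of all 14002 tested genes, 9.08% passed in edgeR and 3188 had an unadjusted p under 0.05. ANXA9, an atypical annexin that has lost calcium binding sites, had 2.16, 2.16 and 2.32 CPM in shTRIM21 and 4.66, 4.002 and 2.49 CPM in shControl. The groups did not overlap, but the control libraries were widely spread and the log2 fold change of -0.75 (SE 0.30) did not pass (adjusted p = 0.142). ANXA8, ANXA8L1, ANXA10, ANXA13 and ANXA2P3 were listed at 0 in all 6 libraries. In these tables a 0 is not read as absence, since CANX, RPL7A and ZYX, which nearly every cell line transcribes, were also listed at 0 throughout.

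Genes that bind annexins or AHNAK, or act beside them in membrane repair and the cell cortex, were read from lists. Of 60 such genes 53 were tested, and 5 rose, 4 fell and 44 did not pass, with a median log2 fold change of 0.04. Over all tested genes 9.08% passed, 4.43% higher and 4.66% lower in shTRIM21, with a median of 0.01. The lists were chosen with earlier results of these data known. Nothing is read from their counts, here or list by list below, against those shares. Among the S100 proteins, small EF-hand proteins that bind annexin tails, S100A11, the partner of ANXA1, rose. It had 142, 139 and 136 CPM in shTRIM21 and 97.6, 107 and 92.8 CPM in shControl (log2 fold change 0.49, SE 0.07, adjusted p = 0.000173). S100A10, the partner of ANXA2, had 57.3, 57.0 and 57.3 CPM in shTRIM21 and 46.2, 46.7 and 54.7 CPM in shControl, and did not pass (log2 fold change 0.22, SE 0.09, adjusted p = 0.126). It passed without shControl replicate 3 (log2 fold change 0.31, adjusted p = 0.0137) and with replicate 3 dropped from both groups (0.31, adjusted p = 0.0284), and its log2 fold change was 0.085 with the offset for exon length and GC content. S100A6 did not pass either (log2 fold change 0.10, SE 0.06, adjusted p = 0.371), and these 3 were the S100 partners with counts enough to be tested, of 6.

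Among 26 membrane repair genes, 25 were tested, 2 rose, 1 fell and 22 did not pass, where 9.08% of all tested genes passed. CHMP2B and CHMP4B, subunits of the ESCRT-III complex that pinches off damaged membrane, rose. CHMP2B averaged 151 ± 7.48 CPM in shTRIM21 and 98.9 ± 5.79 CPM in shControl (SD, n = 3 each; log2 fold change 0.61, SE 0.07, adjusted p = 1.30e-05). CHMP4B averaged 104 ± 2.33 CPM in shTRIM21 and 83.8 ± 1.66 CPM in shControl (SD, n = 3 each; log2 fold change 0.31, SE 0.07, adjusted p = 0.00646). CAVIN1, a coat protein of caveolae, fell by 0.26 on the log2 scale (SE 0.07, adjusted p = 0.0277), a call lost without shTRIM21 replicate 1 (0.109), 2 (0.0918) or 3 (0.0579) and without shControl replicate 1 (0.0596) or 2 (0.135), and also with library totals and no TMM (0.0670). MYOF, a ferlin that fuses vesicles with membrane, averaged 27.7 ± 3.515 CPM in shTRIM21 and 21.4 ± 1.02 CPM in shControl (SD, n = 3 each) and did not pass (log2 fold change 0.37, SE 0.12, adjusted p = 0.0525). It passed in 8 of 18 alternatives, with adjusted p from 0.0138 (replicate 3 dropped from both groups) to 0.0477 (without shControl replicate 3). The others were DESeq2, upper-quartile scaling, no filter on low counts, the replicate block, the offset for exon length and GC content, and the fit without shTRIM21 replicate 3. CAPN2, the large subunit of a calcium-activated protease that cuts AHNAK and annexins, did not pass (log2 fold change -0.11, SE 0.06, adjusted p = 0.280).

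The 4 EF-hand partners of ANXA7 and ANXA11 gave 0 calls with edgeR, DESeq2 or limma-voom, and 0 unadjusted p-values under 0.05 in edgeR. Of all 14002 tested genes, 9.08% passed in edgeR and 3188 had an unadjusted p under 0.05, so nothing is read from these counts. SRI (sorcin), which binds ANXA7, had a log2 fold change of -0.05 (SE 0.08, adjusted p = 0.752). PDCD6 (ALG-2), which binds both, had 0.13 (SE 0.09, adjusted p = 0.380). Of 7 extracellular partners 4 were tested, and 1 passed. PLAU, the urokinase that turns plasminogen into plasmin, a step that ANXA2 with S100A10 is known to promote at the cell surface, fell, with 25.7, 21.6 and 27.3 CPM in shTRIM21 and 51.6, 51.2 and 50.8 CPM in shControl (log2 fold change -1.04, SE 0.10, adjusted p = 1.58e-06). FPR1 and FPR2, receptors for ANXA1, were listed at 0 in all libraries.

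Of 18 genes of the cell cortex and other giant scaffolds, 2 rose, 2 fell and 14 did not pass. The share of all tested genes that passed was 9.08%. MSN (moesin), a linker of actin to the membrane, rose by 0.22 (SE 0.07, adjusted p = 0.0394) on the log2 scale. IQGAP1, an actin-binding scaffold, fell by 0.26 (SE 0.06, adjusted p = 0.0123), and DSP (desmoplakin), which ties desmosomes to keratin, fell by 0.25 (SE 0.07, adjusted p = 0.0318). The call of IQGAP1 was lost without shTRIM21 replicate 1 (adjusted p = 0.0604) and with library totals and no TMM (0.0522). The calls of MSN and DSP were lost without any shTRIM21 library and without shControl replicate 1 or 2, with adjusted p from 0.0614 to 0.120 for MSN and from 0.0803 to 0.172 for DSP. With library totals and no TMM the calls of MSN (adjusted p = 0.0985) and DSP (0.0680) were lost too, and MSN also lost its call when replicate 3 was dropped from both groups (0.0698).

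**Figure D4:**
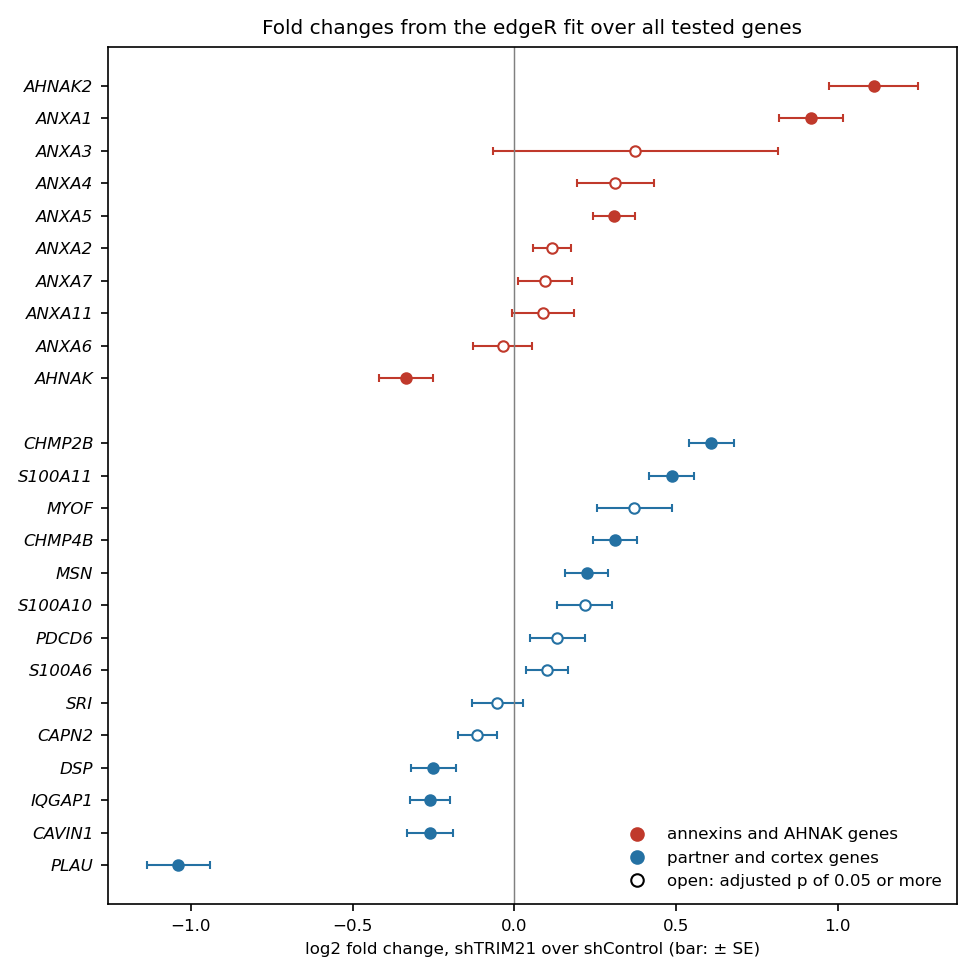
log2 fold change, shTRIM21 over shControl, of the 10 annexin and AHNAK genes (red) and of the 14 named partner and cortex genes (blue), with bars for ± SE. Filled points passed an adjusted p of 0.05 and open points did not. AHNAK2 and ANXA1 lie highest at 1.11 and 0.92, and PLAU lowest at -1.04.

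The 3′ UTRs of the members were also searched for 2 sequences of 7 bases, AGTGGAA and GTGTCAC, which an earlier scan of these same data had picked out. AHNAK, AHNAK2 and ANXA1 hold neither in the longest annotated 3′ UTR. ANXA5 holds GTGTCAC at base 536 of 975, and ANXA11 holds it at base 497 of 4964 and AGTGGAA at base 4344. The sites are shown with the match in capitals.
ANXA5: gatgactaacGTGTCACggggaagagc
ANXA11: tctggtgagtGTGTCACgagctttgtt
ANXA11: gccgagatggAGTGGAAtgagacctag
Of 11881 tested genes with an annotated 3′ UTR, 18.7% hold AGTGGAA and 10.95% hold GTGTCAC, so their presence in 1 and 2 of the 10 genes is no more than a description.

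The direction and call of each gene were followed through 18 other ways of processing. AHNAK2, ANXA1 and ANXA5 kept their calls in all but a test against a minimum fold of 1.5, in which 0 of the 10 genes passed (21 of all tested genes did). DESeq2 and limma-voom each called 4 of the 10. AHNAK lost its call in the 5 fits named above and in the test against a minimum fold, and its fold change stayed between -0.42 and -0.28 on the log2 scale.

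**Figure D5:**
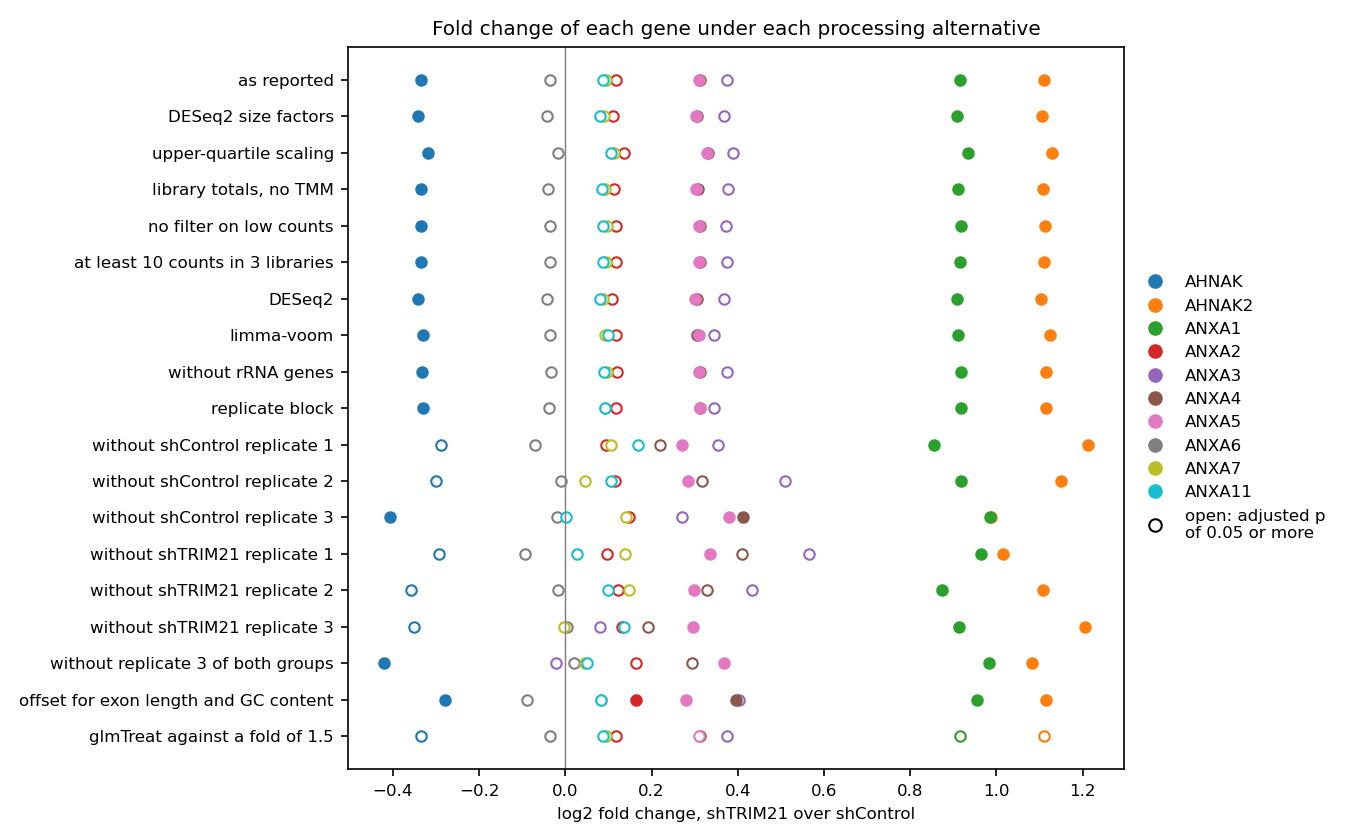
log2 fold change, shTRIM21 over shControl, of each of the 10 genes as reported (top row) and under 18 alternatives (other rows). Filled points passed an adjusted p of 0.05 and open points did not. AHNAK2 stays between 0.99 and 1.21 and ANXA1 between 0.85 and 0.98, and AHNAK turns open in 5 of the 6 fits that leave out 1 library and in the test against a minimum fold of 1.5.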

How the data were processed

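The files hold whole-number counts by gene symbol, 1 table for each of the 6 libraries, deposited without normalization. Per the labels' protocols, total RNA was depleted of ribosomal RNA before a low-input library kit. The submitters' processing notes name the hg38 build and the tools limma 3.52.2, edgeR 3.38.1 and TopHat2 2.1.1, with no role for each. How reads were counted (tool, gene models, strand, multiple positions) is not given in the sources used here.

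Counts of all symbols were fitted with edgeR 4.0.16 (R 4.3.3): default filter on low counts (14002 genes left), TMM scaling, quasi-likelihood test of shTRIM21 over shControl with no covariate, Benjamini-Hochberg adjustment over all tested genes and a threshold of 0.05. The SE is the log2 fold change over the square root of F. CPM are counts divided by the TMM-scaled library size, on the usual scale, with the SD over 3 libraries. Totals ran from 22656160 to 27123657 counts, the biological coefficient of variation was 10.7%, and no 2 libraries agreed within sampling noise (chi-square per gene of 5.70 or more). In 3 simulated sets for each fold (14002 genes, 200 of them changed), the test recovered 65.8% of 1.5-fold and 86.2% of 2-fold changes, with 5.50% and 6.34% of calls false. The changed genes were drawn above a minimum level and were far fewer than the 1272 called here. The simulated counts held no outlying library and no shared shift in ribosomal RNA. These rates therefore need not hold for this contrast.

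GENCODE 29 (GRCh38) matched 25558 of 28278 symbols and gave lengths and positions. Promoter windows are from RefSeq (GRCh38.p14). All 10 members matched in both. Python 3.11.15 was used.

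The members and lists were chosen with earlier results of these data known. Named were the members, TRIM21, up to 4 called genes per partner list by size of fold change and any called the other way, 7 fixed binding partners whatever their call, and genes that overlap or nearly match a member. A gene that met the rule is not reported here by name and stays in the counts. SRGAP1, CDX1, LGALS4, CANX, RPL7A, ZYX, FPR1 and FPR2 were named after their values were seen. Alternatives were other scalings and filters, DESeq2 1.42.0, limma-voom (limma 3.58.1), no ribosomal RNA genes, each library left out, replicate 3 dropped from both groups, a block for the replicate number, an offset for exon length and GC content, a test against a minimum fold of 1.5, and other transcript lengths.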

Additional observations from a re-analysis of the deposited data

How the results depend on the processing

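Of the 10 genes, 7 kept their direction in all 18 alternatives. Without replicate 3 of both groups ANXA3 turned to -0.022, ANXA6 to 0.021 and SRI to 0.049 (log2), with the offset for exon length and GC content S100A6 turned to -0.040, and with each library left out ANXA6 ran from -0.094 to 0.0036, ANXA7 from -0.0024 to 0.15 and SRI from -0.10 to 0.014. None of these had passed the test, and the cause was not tested. With each library left out, the log2 fold change of AHNAK ran from -0.41 to -0.29, of ANXA4 from 0.19 to 0.41 and of TRIM21 from -0.82 to -0.56. ANXA4 passed with no filter (0.31), with the replicate block (0.31) and with the offset (0.40), and ANXA2 with the offset (0.16). TRIM21 did not pass without replicate 3 of both groups (-0.45). Against a minimum fold of 1.5, which asks for more by construction, AHNAK (-0.33), AHNAK2 (1.11), ANXA1 (0.92), ANXA5 (0.31) and TRIM21 (-0.73) no longer passed, and 0 of the 10 genes, 1 partner gene and 21 genes in all did. Partner genes past the threshold numbered 9 as reported, 4 with library totals and no TMM, 15 with the offset and 5 to 15 with 1 library left out, where 602 to 1737 genes passed over the whole table, against 1272. Of the 14 named partner genes 12 kept their direction and 3 both direction and call. These 3 were PLAU, which passed throughout, and CAPN2 and PDCD6, which never passed. S100A11, CHMP2B and CHMP4B lost their calls only in the test against a minimum fold of 1.5.

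The replicate numbers are not stated to pair cultures and were not taken as pairs. Samples of the same replicate number deviated together only in part (correlations of 0.131, -0.073 and 0.109 over 12776 genes). The correlation of shTRIM21 replicate 1 was about equal with shControl replicate 1 (0.131) and replicate 2 (0.132). These values cannot tell which libraries belong together. With the replicate block 1699 genes, 5 of the 10 genes and 13 partner genes passed. Upper-quartile scaling gave 720 of 1338 calls higher in shTRIM21, against 620 of 1272 as reported.

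The level per kilobase over all libraries depended on the length used. By joined exons it was 7.75 for ANXA1, 56.7 for ANXA2, 0.255 for ANXA3, 2.96 for ANXA4, 137 for ANXA5, 7.37 for ANXA6, 31.9 for ANXA7 and 6.24 for ANXA11. By the longest transcript it was 16.0, 142, 0.445, 7.41, 235, 15.4, 37.2 and 7.63 in that order of genes, and by the transcript with the longest coding sequence, a choice made after the data were seen, 16.0, 347, 0.787, 11.7, 235, 15.4, 42.0 and 7.63. Depth limits ANXA3 most, at 27 to 52 counts per library.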
